A study of Mus musculus with 6 samples.

Results

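The neuromuscular synapse genes described here are 10 genes, chosen by name, of 49671 in the deposited gene tables. Agrn encodes agrin, the ligand. Lrp4, Musk, and Dok7 encode the receptor complex that agrin activates. Rapsn encodes rapsyn, which anchors acetylcholine receptors (AChRs) in clusters. Chrna1, Chrnb1, Chrnd, Chrng, and Chrne encode the subunits of the muscle AChR.

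RNA-Seq was performed on muscle stem cells (MuSCs), the cells that rebuild injured myofibers, from 3 mice treated with resolvin D1 (RvD1, a lipid mediator of resolving inflammation) and 3 mice given vehicle. All 6 animals were female C57BL/6 mice aged 4 to 6 months, and all were sampled at day 3 after the tibialis anterior (TA) muscle received 50 μL of 1.2% BaCl2, a salt solution that kills myofibers. RvD1 was given daily by intraperitoneal injection at 100 ng, and vehicle was 0.1% ethanol. Each library came from 1 mouse, with its 2 TA muscles pooled, and cells were sorted as positive for CXCR4 and β1-integrin and negative for blood lineage markers and Sca-1, and per the labels also for CD31. The comparison asks whether RvD1 changed gene expression in these cells. In such bulk samples fewer cells of a type and less RNA per cell cannot be told apart.

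At the mature synapse, agrin released by the motor nerve binds LRP4, which activates the kinase MuSK together with its adaptor Dok-7, and rapsyn then gathers AChRs beneath the nerve terminal. Fetal and denervated muscle carries a receptor with the γ subunit (Chrng), and in innervated adult muscle the ε subunit (Chrne) takes its place. Myogenic factors such as MyoD and myogenin act on E-boxes in the promoters of several subunit genes during differentiation.

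Libraries held between 16148026 and 28149176 expected counts, the RSEM estimate of the reads of each gene. Of the 10 genes, 9 had enough counts for testing and Chrne did not. The MuSC and early muscle markers were present, with Pax7 between 4.03 and 8.5 TPM (a level scaled for transcript length and to a common library total) and Myog between 818 and 1378 TPM. The 10 genes listed as mature myofiber markers were at uneven levels. Acta1 was between 370 and 751 TPM, and Mylpf, Tnnt3, Tnni2, and Atp2a1 were at 127.43 TPM or more in every library. The others were lower, with highest values of 29.7 TPM for Ckm, 10.44 for Myh1, 1.84 for Myh4, 1.14 for Pvalb, and 0.08 for Myh2. Whether these transcripts came from mature myofibers was not tested. Of the motor neuron markers, Chat and Slc18a3 were at 0 in every library and the summed level of 5 markers was at most 0.33 TPM.

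The genes spanned a wide range of levels, with the AChR α subunit far above the others and the ε subunit almost undetected. In mean TPM over 6 libraries, Chrna1 stood at 510 ± 42.7 (SD, n = 6), above 97.6% of the 14494 genes tested. A second group, lower than Chrna1 in every library, held Rapsn at 126 ± 6.20, Chrnb1 at 114 ± 11.1, Chrng at 114 ± 8.98, and Chrnd at 102 ± 7.08 TPM (SD, n = 6). Musk at 45.1 ± 6.43 and Dok7 at 38.5 ± 7.63 TPM (SD, n = 6) followed. Agrn at 9.95 ± 2.38 and Lrp4 at 3.70 ± 0.875 TPM (SD, n = 6) were lower, and Chrne averaged 0.158 TPM.

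Some neighbors in this order could not be separated. Chrnb1 was above Chrng in 3 of 6 libraries, so their order was not resolved. Rapsn was above Chrnb1 in 5 of 6 libraries, as were Chrng above Chrnd and Musk above Dok7. Every other neighboring pair kept its order in 6 of 6 libraries.

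**Figure D1:**
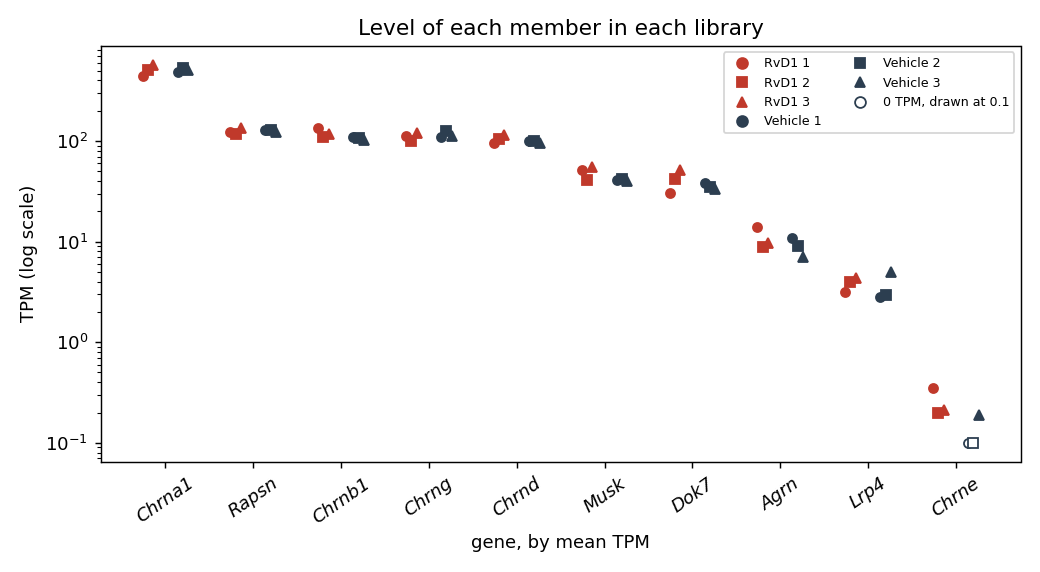
Level of each gene in each of the 6 libraries, in TPM on a log axis, with genes ordered by mean. Red symbols are RvD1 and dark symbols vehicle, with 1 point for each library and open symbols for a TPM of 0 drawn at 0.1. Chrna1 lies between 446 and 572 TPM and Chrne at or below 0.35 TPM.

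Agrn, on chromosome 4 (GRCm38 chr4:156165290-156197488, minus strand), was present at a low level in sorted cells in which motor neuron markers were near 0. Muscle cells are known to make agrin forms of their own, and counts per gene do not separate these from the nerve form. Agrn stood at 14.08, 8.89, and 9.67 TPM in RvD1 replicates 1 to 3 and at 10.92, 9.09, and 7.07 TPM in vehicle replicates 1 to 3. The groups overlapped, and the 14.08 TPM of RvD1 replicate 1 was the highest value. RvD1 over vehicle gave a log2 fold change of 0.24 (SE 0.18, 95% interval -0.17 to 0.65, adjusted p = 0.971 by edgeR's quasi-likelihood test). Without RvD1 replicate 1 it was 0.06.

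RvD1 replicate 1 was also the library with the highest Schwann cell and fibro-adipogenic progenitor (FAP) markers. The summed level of 7 Schwann cell markers was 62.3 TPM there, with a range of 31.4 to 62.3 TPM with RvD1 and 22.3 to 30.2 TPM with vehicle. None of these 7 was at 0, and 7 of 7 had fold changes above 0, beside 53.5% of all genes tested. Of them, 3 had an unadjusted p under 0.05 by edgeR (Ngfr, Cdh19, and Mbp), beside 3.47% of all genes tested and 1.83% in this direction. The summed level of 8 FAP markers was 1698 TPM in the same library, with a range of 727 to 1698 TPM with RvD1 and 839 to 915 TPM with vehicle. Of the 7 FAP markers tested, 6 had fold changes above 0, and none was at 0 in every library. The other, Ly6a, encodes Sca-1, which the sort selected against. It was at 25.44, 22.43, and 17.25 TPM with RvD1 and at 39.72, 26.29, and 30.31 TPM with vehicle, a log2 fold change of -0.62 (SE 0.20, unadjusted p = 0.0141, adjusted p = 0.971, edgeR). Leukocyte markers had fold changes below 0 in 11 of 11 tested, with sums of 44.2 to 65.9 TPM with RvD1 and 58.6 to 98.3 TPM with vehicle. Of these 11, 3 had an unadjusted p under 0.05 by edgeR, beside 3.47% of all genes tested and 1.64% in this direction. Endothelial markers had fold changes below 0 in 7 of 8 tested, with sums of 11.5 to 17.4 TPM with RvD1 and 8.28 to 25.2 TPM with vehicle. The part of these cells in the Agrn values was not tested.

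Lrp4, the agrin receptor, lies on chromosome 2 (GRCm38 chr2:91457511-91513779, plus strand). Its level was 3.16, 3.95, and 4.32 TPM with RvD1 and 2.83, 2.93, and 5.02 TPM with vehicle. The highest value was in a vehicle library and the lowest in another, so in TPM the vehicle range enclosed the RvD1 range. In CPM, scaled for depth with TMM factors and not for length, the RvD1 range of 7.56 to 12.9 enclosed the vehicle range of 7.62 to 10.6. The fold change rests on counts scaled in this way. RvD1 libraries differed from vehicle by a log2 fold change of 0.18 (SE 0.23, 95% interval -0.34 to 0.71), the widest interval of the 9 genes, from 123 to 295 counts a library.

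Musk encodes the kinase at the center of the pathway (GRCm38 chr4:58285960-58374303, plus strand). It stood at 52.04, 40.89, and 54.69 TPM with RvD1 and at 41.30, 41.46, and 40.48 TPM with vehicle. RvD1 replicates 1 and 3 were above every vehicle library and RvD1 replicate 2 was within the vehicle range. The log2 fold change was 0.16 (SE 0.11, 95% interval -0.09 to 0.42), with an unadjusted p of 0.185 by edgeR's quasi-likelihood test, the smallest of the 9 genes. With 1 library left out it lay between 0.08 (without RvD1 replicate 3, unadjusted p = 0.509) and 0.26 (without RvD1 replicate 2, unadjusted p = 0.0367, adjusted p = 0.725, edgeR).

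Dok7, the cytoplasmic activator of MuSK (GRCm38 chr5:35056766-35087839, plus strand), spread over a wide range in the RvD1 libraries. It was at 30.71, 41.55, and 52.06 TPM with RvD1 and at 38.00, 34.97, and 33.51 TPM with vehicle. RvD1 replicate 1 held the lowest value and RvD1 replicate 3 the highest, with all vehicle libraries between them. Its log2 fold change was 0.04 (SE 0.15, 95% interval -0.31 to 0.38).

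Rapsn, the receptor anchor (GRCm38 chr2:91035620-91045729, plus strand), was at 122.85, 117.72, and 134.72 TPM with RvD1 and at 128.48, 130.03, and 122.05 TPM with vehicle. The log2 fold change was -0.10 (SE 0.09, 95% interval -0.30 to 0.11). An antisense transcript, Gm13778, overlaps its exons and held at most 8 counts in a library. The library kit does not mark strand, so reads of the 2 genes cannot be told apart in the shared exons.

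The promoters shown are those of Chrng, Chrna1, and Chrne: the fetal subunit, the most abundant subunit, and the adult subunit that was nearly absent. The sequences are RefSeq promoters on GRCm38.p6, read 5′ to 3′ on the gene's strand, from 250 to 31 bases before the annotated start. Capitals mark CAGCTG, an E-box form that reads the same on both strands and is a subset of CANNTG, and CCGGAA (searched on both strands), the core of the N-box bound by the GABP factor.
Chrng, chr1:87205561-87205780, plus strand: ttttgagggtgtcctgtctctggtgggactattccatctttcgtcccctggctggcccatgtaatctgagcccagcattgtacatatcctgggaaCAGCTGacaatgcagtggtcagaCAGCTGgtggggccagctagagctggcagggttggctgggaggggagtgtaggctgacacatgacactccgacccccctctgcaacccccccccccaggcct
Chrna1, chr2:73580369-73580588, minus strand: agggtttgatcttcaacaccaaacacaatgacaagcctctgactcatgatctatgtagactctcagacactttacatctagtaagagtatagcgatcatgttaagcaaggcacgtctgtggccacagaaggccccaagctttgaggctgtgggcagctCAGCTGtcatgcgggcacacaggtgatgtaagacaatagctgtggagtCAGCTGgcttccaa
Chrne, chr11:70619225-70619444, minus strand: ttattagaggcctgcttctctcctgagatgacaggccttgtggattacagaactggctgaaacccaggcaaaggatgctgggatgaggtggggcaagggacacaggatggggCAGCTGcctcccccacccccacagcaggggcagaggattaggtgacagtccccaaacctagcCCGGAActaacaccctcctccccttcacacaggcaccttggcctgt

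The Chrng window held CAGCTG starting at positions -155 and -132, the Chrna1 window at -92 and -44, and the Chrne window at -138, with positions counted from the annotated start. CCGGAA was found in the Chrne window alone of these 3, at -76. The Chrng window lies within the gene's span in GENCODE M21, with no annotated exon in it. Of 32851 RefSeq promoter windows of the same length, 11.4% held CAGCTG, 0.983% held it at 2 or more positions, 62.1% held CANNTG, and 9.47% held CCGGAA. Entries were matched for 7 of the 10 genes, and not for Chrnd, Rapsn, or Lrp4. Musk held CAGCTG at -68, and no entry of Agrn, Dok7, or Chrnb1 held it. A match describes letters and is not evidence of a bound site, and the window of nearly absent Chrne held the motif as did those of abundant Chrng and Chrna1.

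Chrna1, the α subunit that binds acetylcholine and is present in more than 1 copy in every receptor, lies at GRCm38 chr2:73563215-73580338 (minus strand). It was at 445.51, 506.02, and 571.55 TPM with RvD1 and at 487.74, 535.91, and 512.69 TPM with vehicle. RvD1 replicate 1 held the lowest and RvD1 replicate 3 the highest value, so in TPM the vehicle range was enclosed by the RvD1 range. In CPM vehicle replicate 2 was highest, at 1498 beside 1474 in RvD1 replicate 3. The log2 fold change was -0.10 (SE 0.11, 95% interval -0.35 to 0.16).

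Chrnb1, the β subunit, is at GRCm38 chr11:69784036-69795943 (minus strand). It was at 134.64, 110.01, and 116.52 TPM with RvD1 and at 110.29, 107.42, and 103.46 TPM with vehicle. RvD1 replicates 1 and 3 were above all vehicle libraries and replicate 2 was just within their range in TPM. In CPM replicate 2, at 125, was below the vehicle range of 127 to 130. Its log2 fold change was 0.05 (SE 0.09, 95% interval -0.15 to 0.24).

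Chrnd, the δ subunit, is at GRCm38 chr1:87190607-87200070 (plus strand), 4586 bases from Chrng. It was at 96.59, 105.05, and 114.61 TPM with RvD1 and at 99.68, 100.47, and 95.29 TPM with vehicle, and the groups overlapped. A log2 fold change of 0.01 was estimated for it (SE 0.10, 95% interval -0.22 to 0.24).

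Chrng, the fetal γ subunit, is at GRCm38 chr1:87204657-87212694 (plus strand). It was at 112.62, 100.93, and 120.65 TPM with RvD1 and at 108.89, 126.56, and 112.15 TPM with vehicle. RvD1 replicate 2 was lowest in TPM and vehicle replicate 2 highest, while in CPM RvD1 replicate 1 was lowest. The log2 fold change was -0.10 (SE 0.11, 95% interval -0.35 to 0.16).

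The subunit transcripts kept similar proportions in every library. Of the summed TPM of the 5 subunits, Chrna1 made up 60.7% ± 2.18, Chrnb1 13.6% ± 1.77, Chrng 13.5% ± 0.819, and Chrnd 12.1% ± 0.493 (SD, n = 6). The Chrna1 share was 59.9% ± 3.07 with RvD1 and 61.4% ± 0.893 with vehicle (SD, n = 3). RvD1 replicate 1 stood lowest at 56.4%, and its Chrnb1 share was highest at 17.0%. Chrna1 was between 3.31 and 5.38 times each of the other 3 abundant subunits in any library.

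**Figure D2:**
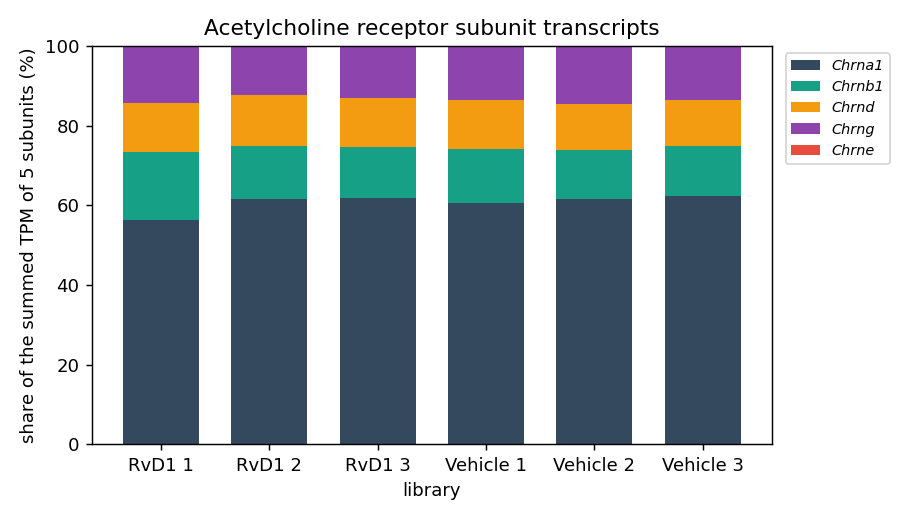
Share of each AChR subunit gene in the summed TPM of the 5 subunits, in percent, for each of the 6 libraries. Chrna1 makes up 60.7% on average, and Chrne, at 0.0191% on average, is too small to see.

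Fetal Chrng was far above adult Chrne in every library. Chrng held 2853, 3713, and 2924 counts with RvD1 and 2364, 2841, and 2633 counts with vehicle. Chrne held 2, 2, and 1 counts with RvD1 and 0, 0, and 1 with vehicle. Over the 6 libraries this was 17328 counts against 6, a ratio of 2888 (95% interval 1327 to 7870, counting error only). Chrne was under the floor of 3 counts, about the 1-sided 95% upper limit for a count of 0, in 6 of 6 libraries.

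In vehicle replicates 1 and 2, with Chrne at 0, the floor per library gave a TPM ratio of at least 177-fold and at least 213-fold. As count ratios the floor gave 788 and 947 there, and the 2-sided 95% interval gave lower limits of 641 and 770. In the other libraries, with 1 or 2 Chrne counts, the count ratio was 1426.5 (95% interval 395 to 11779), 1856.5 (514 to 15330), and 2924 (525 to 115492) in RvD1 replicates 1 to 3, and 2633 (473 to 103998) in vehicle replicate 3. With Chrne set to 3 counts in every library the mean log2 TPM ratio was 7.74. Chrng was higher in 6 of 6 libraries (two-sided exact sign permutation p = 0.0312, the smallest that 6 libraries can give). With every ratio in the same direction this p is fixed whatever their size, so it adds nothing to the counts. The deposited TPM values, in the 4 libraries with Chrne above 0, gave ratios of 322 to 590. The effective length behind these Chrne values was 428 to 592 bases, while its annotated coding transcripts are 1591 and 1616 bases and its retained-intron transcripts 518 and 641 bases. At the effective length of a coding Chrne transcript, the bounds of vehicle replicates 1 and 2 were at least 548-fold and at least 719-fold, an alternative added after the data were seen. Whether the fetal to adult ratio differed between RvD1 and vehicle was not tested, because Chrne did not rise above the floor in either group. Chrne lies at GRCm38 chr11:70614883-70619216 (minus strand), with the opposite-strand gene 4930544D05Rik inside its span and no shared exon.

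None of the neuromuscular synapse genes passed the threshold between RvD1 and vehicle. Of the 9 tested, 0 had an adjusted p under 0.05, beside 0% (0 of 14494) of all genes tested. At an unadjusted p under 0.05 they numbered 0 of 9, beside 3.47% (503) of all genes. This background comprised 1.83% (265) higher and 1.64% (238) lower with RvD1. Groups of libraries did not overlap for 0 of the 9, beside 9.62% of all genes. DESeq2 also called 0 of 14492 genes and 474 at an unadjusted p under 0.05, and limma-voom called 0 of 14494 and 482.

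Adjusted p values of the 9 lay between 0.971 and 0.994 (edgeR). Among the 9 genes, 6 had fold changes above 0 and 3 below, while 53.5% of all genes tested were above 0. Their median log2 fold change was 0.04 beside 0.01 over all genes. The 95% intervals of the 4 tested subunits lay between -0.35 and 0.24, and those of all 9 genes between -0.35 and 0.71. The smallest p that an exact permutation of 3 libraries against 3 can give is 0.1.

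**Figure D3:**
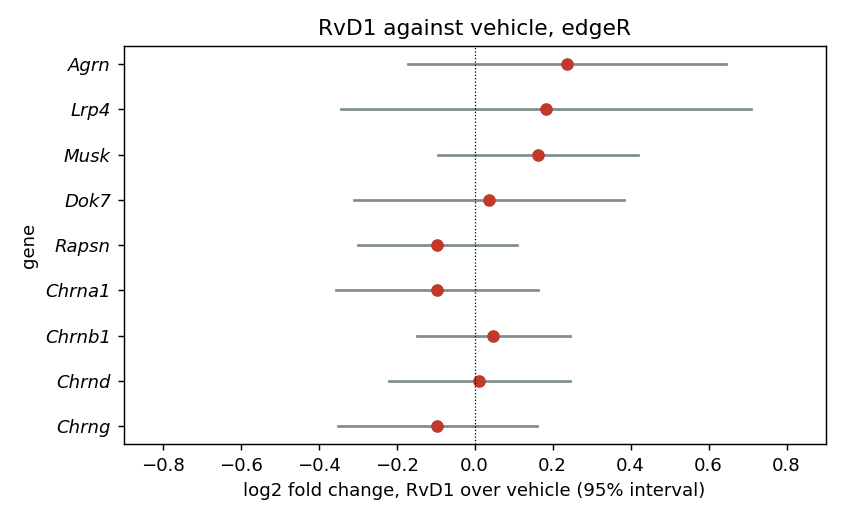
Log2 fold change of each tested gene, RvD1 over vehicle, from edgeR. Points are estimates and lines 95% intervals. All 9 intervals cross 0, with estimates between -0.10 and 0.24.

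The spread was wider among RvD1 libraries than among vehicle libraries for 9 of 9 genes, as the SD of log2 CPM (counts scaled for depth with TMM factors). In TPM it was wider for 8 of 9, the exception being Lrp4. Other genes, such as Myod1, Myf5, and Tcf3, also had a wider SD of log2 CPM with RvD1, and Src and Ptpn11 a narrower one. The share over all genes was not computed, so the wider spread cannot be called particular to these genes. In log2 CPM RvD1 replicate 1 held the lowest value of 6 of the 9 genes, and RvD1 replicate 3 the highest of 4. In RvD1 replicate 1, Dok7 was 0.37 and Lrp4 0.33 below the gene's mean on the log2 scale, and Agrn was 0.43 above. Without that library the log2 fold change of Chrna1 was 0.01 in place of -0.10.

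**Figure D4:**
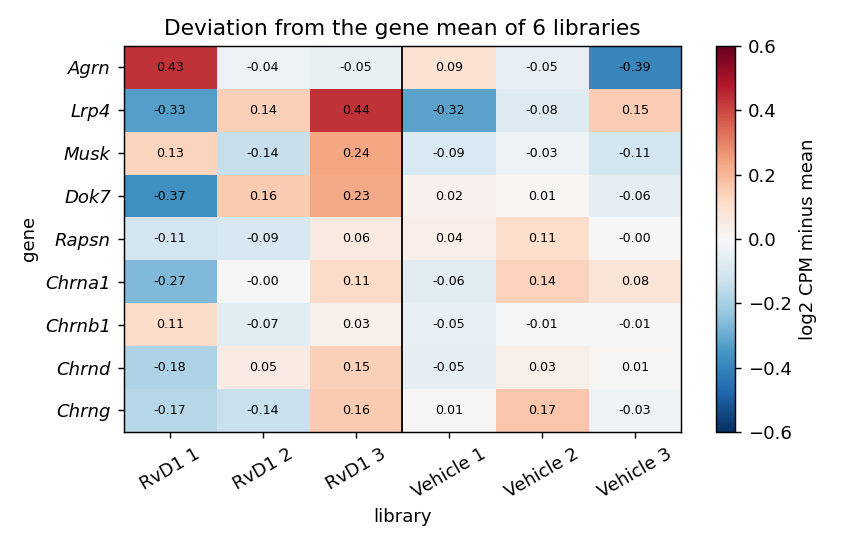
Deviation of log2 CPM from the 6-library mean of each tested gene, for each library, on a color scale from -0.60 to 0.60. The line divides RvD1 from vehicle. RvD1 replicate 1 is low for 6 of 9 genes, and Agrn there is 0.43 above its mean.

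The members were also set against Myog, the transcription factor myogenin. Myog was at 971.71, 869.68, and 1377.77 TPM with RvD1 and at 851.23, 973.50, and 818.13 TPM with vehicle (log2 fold change 0.20, SE 0.16). Over 6 libraries, 9 of 9 genes had a Pearson r above 0 in log2 CPM, between 0.01 and 0.82, and 0 of 9 had an adjusted p under 0.05 by exact permutation. Musk was highest, with r = 0.82 (exact permutation p = 0.0417, adjusted over 9 relations 0.375) and Spearman rho = 0.71 (exact permutation p = 0.136, adjusted 0.669). Without the libraries farthest from the Myog median (RvD1 replicate 3 and vehicle replicate 2) r turned negative for 6 of the 9 genes (Lrp4, Dok7, Rapsn, Chrna1, Chrnd, and Chrng). The 4 libraries left were too few to tell what the pooled relations rest on. For Musk r was 0.88 without those 2 libraries, and within the groups it was 0.79 with RvD1 and 0.96 with vehicle. For Chrng, r was 0.67 (exact permutation p = 0.146, adjusted 0.495) with rho 0.37 (exact permutation p = 0.497, adjusted 0.725). It became -0.90 without those 2 libraries and was 0.98 within each group (n = 3). Within each group, r in log2 CPM was above 0 for each of the 6 genes named above, with Rapsn at 0.98 and 0.90. On the log2(TPM + 1) scale RvD1 replicate 3 and vehicle replicate 3 were farthest from the Myog median. Without these 2, r was 0.76 for Chrng and 0.25 for Rapsn, and 4 of the 9 genes turned negative (Lrp4, Dok7, Chrna1, and Chrnd).

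Other neuromuscular genes came from 7 lists of 64 genes, of which 50 were tested. The lists were chosen with earlier results of these data known. Of the 50, 33 had fold changes above 0 and 17 below, 0 had an adjusted p under 0.05, and 5 (10%) had an unadjusted p under 0.05, 4 higher and 1 lower. Over all genes 53.5% had fold changes above 0, and 3.47% had an unadjusted p under 0.05, with 1.83% higher and 1.64% lower. Groups did not overlap for 10 (20%), beside the 9.62% of all genes. The 4 higher were Runx1, Sntb1, Utrn, and Scn4a, and the lower was Id1. Without RvD1 replicate 1, 4 of 50 (8%) had an unadjusted p under 0.05, beside 4.33% of all genes in that fit. Without RvD1 replicate 2 it was 8 of 52 (15.4%, beside 6.83%). Without vehicle replicate 2 it was 2 of 52 (3.85%) and without vehicle replicate 3 it was 2 of 51 (3.92%), both beside 1.90%. The neuronal AChR subunits were mostly silent, with Chrna7 alone of 11 tested, at 5.29, 1.30, and 2.55 TPM with RvD1 and 2.73, 1.15, and 1.17 TPM with vehicle.

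In the list of membrane proteins linked to the endplate or to denervated fibers, 4 of 4 were above 0, with a median log2 fold change of 0.27 beside 0.01 over all genes. Runx1, a transcription factor that denervated muscle expresses, was at 107.46, 86.35, and 99.66 TPM with RvD1 and at 79.76, 72.78, and 67.93 TPM with vehicle. Its groups did not overlap, and its log2 fold change was 0.33 (SE 0.11, unadjusted p = 0.0138, adjusted p = 0.971, edgeR). Without RvD1 replicate 1 it was 0.24 (unadjusted p = 0.0219, edgeR). Ncam1, a cell adhesion molecule, was the most abundant gene of this list, with a fold change of 0.21 on the log2 scale (SE 0.10) and no overlap of the groups. Scn4a, the muscle sodium channel, was near the limit of testing at 0.89, 0.38, and 0.65 TPM with RvD1 and 0.06, 0.29, and 0.37 TPM with vehicle, and its log2 fold change of 1.33 had an unadjusted p of 0.0467 (edgeR).

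In the synaptic cytoskeleton list 5 of 7 were above 0, with a median log2 fold change of 0.12. Utrn, the dystrophin relative utrophin, was at 26.74, 21.45, and 23.58 TPM with RvD1 and at 19.34, 16.07, and 16.13 TPM with vehicle (log2 fold change 0.29, unadjusted p = 0.0425, adjusted p = 0.971, edgeR). Sntb1, a syntrophin of the same complex, was at 44.72, 38.19, and 43.88 TPM with RvD1 and at 32.62, 33.22, and 36.26 TPM with vehicle (log2 fold change 0.23, unadjusted p = 0.0366, adjusted p = 0.971, edgeR). All RvD1 libraries were above all vehicle libraries for both genes. Plec, the most abundant of this list, had a log2 fold change of -0.09. Without RvD1 replicate 1, Utrn was 0.20 (unadjusted p = 0.101, edgeR) and Sntb1 was 0.21 (unadjusted p = 0.0467, edgeR). Schwann cell markers moved the same way, as given above, and their part in these values was not tested.

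The effectors of agrin and MuSK were balanced, with 8 of 16 above 0 and a median of -0.0017. Cdc42, a small GTPase and the most abundant of them, had a log2 fold change of -0.08, and Pdzrn3, a ubiquitin ligase of MuSK, had 0.67 (unadjusted p = 0.0924, edgeR). Of the neuregulin and subsynaptic transcription genes, 7 of 8 were above 0 with a median of 0.14. Gabpa, a GABP subunit and the most abundant, was at 0.03, and Hdac9, a histone deacetylase, at 0.74 (unadjusted p = 0.0514, edgeR). Of the synaptic cleft genes, 4 of 5 were above 0 with a median of 0.13, with Lama5 (laminin α5) at 0.00 and Lamb2 (laminin β2) at 0.19.

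Of the E-box binding factors, 4 of 6 were above 0, and of their Id inhibitors 0 of 3 were, with log2 fold changes of -0.37 for Id1, -0.08 for Id2, and -0.10 for Id3. The groups did not overlap in CPM for Id1 and Id2. Myod1 was at 238.88, 381.50, and 469.99 TPM with RvD1 and at 325.29, 343.20, and 375.94 TPM with vehicle (log2 fold change -0.02, adjusted p = 0.995, edgeR). Id1, which keeps these factors from DNA, was at 159.57, 166.64, and 155.61 TPM with RvD1 and at 193.54, 224.25, and 169.16 TPM with vehicle. All RvD1 libraries were below all vehicle libraries. The log2 fold change was -0.37 (SE 0.12, unadjusted p = 0.0138, adjusted p = 0.971, edgeR), and without RvD1 replicate 1 it was -0.35.

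**Figure D5:**
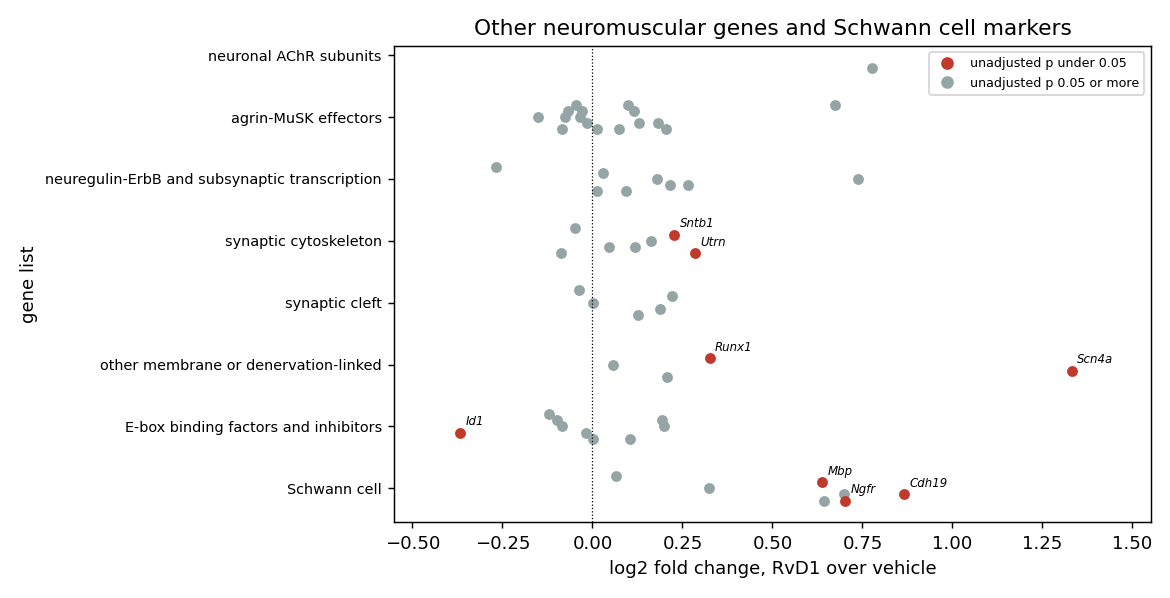
Log2 fold change, RvD1 over vehicle, of each tested gene of the 7 neuromuscular lists and of the Schwann cell markers, 1 point a gene. Red points and gene names mark an unadjusted p under 0.05 by edgeR, none of which passed adjustment. Runx1, Utrn, and Sntb1 lie between 0.23 and 0.33 and Id1 at -0.37.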

How the data were processed

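Gene expression was measured by RNA-Seq in MuSCs of 6 mice. The authors sequenced 76-bp single-ended reads from an unstranded kit, aligned them to mm10 with STAR 2.5.0a, and quantified genes with RSEM. The annotation is not given in the sources used here. Expected counts were deposited as RSEM made them, not scaled for depth. TPM and FPKM, which the authors also deposited, are divided by transcript length and scaled to the library. Each file had 1 stray header line removed.

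Columns were assigned by treatment and replicate number. The main test was edgeR 4.0.16 (R 4.3.3), for which expected counts were rounded (filterByExpr, TMM, quasi-likelihood test, Benjamini-Hochberg over 14494 genes, threshold 0.05). Log2 CPM used a prior count of 2. Alternatives were DESeq2 1.42.0, limma 3.58.1, and a reconstruction of the study's procedure with sva 3.50.0 and 1 surrogate variable removed. Further ones used other scaling factors, no count filter, robust estimation, or a replicate block. The rest used TPM and FPKM with a pseudocount of 1, or left out each library. Permutations and counting intervals used scipy 1.17.1. Tests were run on simulated counts first. The members, gene lists, and comparisons were chosen with earlier results of these data known. The named genes are the members and, of each neuromuscular list, the most abundant gene, the one with the smallest p, and Myod1 and Myog. Utrn, Scn4a, Id2, Id3, and the cell type markers given were named after their values were seen. Reads carry no molecular identifiers, so the intervals and floors of the Chrng to Chrne ratios cover counting error only. The fold change intervals and the edgeR p-values include the spread between mice. Gene positions were taken from GENCODE M21 and promoters from RefSeq, both on GRCm38. The labels give 1 ng and the study's methods 10 ng of RNA as input.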

Additional observations from a re-analysis of the deposited data

How the results depend on the processing

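In the 11 settings that used all 6 libraries, the 9 fold changes kept their direction in 99 of 99 cases and no member passed the adjusted threshold. Leaving out each library in turn, 47 of 54 kept their direction. The log2 fold change ranged from -0.0049 to 0.36 for Lrp4, from -0.073 to 0.20 for Dok7, from -0.18 to 0.0058 for Chrna1, and from -0.061 to 0.10 for Chrnd, each of which changed sign, and from 0.06 to 0.35 for Agrn. The sign changed for Lrp4 without RvD1 replicate 3, for Dok7 without RvD1 replicate 2 or 3, for Chrna1 without RvD1 replicate 1, and for Chrnd without RvD1 replicate 2, RvD1 replicate 3, or vehicle replicate 1. The cause was not tested. No member was called in any of these fits. Over all genes, edgeR called 12 with no count filter and 0 to 1 with a library left out (1 without RvD1 replicate 3), beside 0 in the full fit. A reconstruction of the study's limma-voom procedure called 0 of 26518 genes and 2973 at an unadjusted p under 0.05. The study's methods state neither the number of surrogate variables nor a count filter, so both were chosen here. With Chrne set to 3 counts, the mean log2 ratio of Chrng to Chrne was 7.67 to 7.80 with a library left out, where the smallest possible exact permutation p is 0.0625.

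With the replicate number as a replicate block, edgeR called 0 genes (896 at an unadjusted p under 0.05) and Musk had a log2 fold change of 0.15. Deviations of same-numbered libraries correlated at 0.31, -0.00071, and 0.13, beside a mean of -0.073 for different numbers. The labels give no pairing beyond the number, and whether these libraries shared a batch was not tested. A log2(TPM + 1) scale moved the median of all genes to 0.08. The planned comparison of the Chrng to Chrne ratio between groups, with its alternatives, was not run because Chrne was at or under 3 counts in every library. Depth limits statements on Chrne to an upper bound.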

Other observations

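Members were also set against Myod1, a choice made after its values were seen, so the p-values describe and do not test. Of the 9 members, 6 had r above 0 and 3 below. Over 6 libraries in log2 CPM, Chrnd had r = 0.97 (exact permutation p = 0.00556, adjusted over 9 relations 0.05) with rho = 0.83 (exact permutation p = 0.0583, adjusted 0.263), and r = 0.75 without RvD1 replicates 1 and 3, the libraries farthest from the Myod1 median. Lrp4 had r = 0.87 (exact permutation p = 0.0181, adjusted 0.0625) with rho = 1.00 (exact permutation p = 0.00278, adjusted 0.025), and r = 0.99 without those libraries. Dok7 had r = 0.91 (exact permutation p = 0.0278, adjusted 0.0625) with rho = 0.60 (exact permutation p = 0.242, adjusted 0.435), and r = 0.03 without those libraries. Chrna1 had r = 0.91 (exact permutation p = 0.0236, adjusted 0.0625) with rho = 0.66 (exact permutation p = 0.175, adjusted 0.394), and r = 0.50 without those libraries. Chrng had r = 0.61 and Rapsn r = 0.52, which became -0.39 and -0.52 without those libraries. Agrn had r = -0.81 (exact permutation p = 0.0722, adjusted 0.130) with rho = -0.71 (exact permutation p = 0.136, adjusted 0.394), and r = -0.79 without those libraries. Chrnb1 had r = -0.58 (exact permutation p = 0.237, adjusted 0.305) with rho = -0.14 (exact permutation p = 0.803, adjusted 0.903), and Musk had r = -0.09 (exact permutation p = 0.857, adjusted 0.857) with rho = -0.03 (exact permutation p = 1.00, adjusted 1.00). On the log2(TPM + 1) scale r was 0.72 for Chrnd and 0.60 for Lrp4.

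Chodl, a gene of quiescent MuSCs, was at 122.77 TPM in RvD1 replicate 1 and between 10.81 and 27.54 TPM in the other libraries.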
